A study of Mus musculus with 18 samples.

Results

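Solute carriers are the membrane transporters that move sugars, amino acids, ions, metals, nucleosides and vitamins in and out of cells and organelles. The genes described here are the rows of a gene expression table whose symbol has the form Slc, a family number, the letter a and a member number. Members were chosen by their measured level in these libraries, which had to reach 1 FPKM in at least 3 of 18. FPKM counts fragments for each kilobase of a gene, divided by a size factor of the library. Of 221 such rows among the 16248 genes of the table, 193 met that rule and 28 did not. No value in the table was 0, so a gene at 0 in even 1 library had no row and could not be a member. The 193 members came from 45 families and were sorted by substrate into 12 named classes, with 1 gene (Slc49a4) left unassigned. The largest classes were the mitochondrial carriers (37), the transporters of amino acids and peptides (29), of metals and heme (25) and of inorganic ions and pH (25).

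The libraries were bulk RNA-seq of endothelial cells (ECs), the cells lining blood vessels, sorted from female FVB mice. The tissues were the mammary fat pad of mice with no transgene (Normal), labelled wild type, breast tumours of transgenic MMTV-PyMT mice (MMTV-PyMT tumor) and breast tumours in wild-type mice (Implanted tumor). Each tissue was injected with PBS or with cGAMP and taken 3 h later, which gave 6 groups of 3 libraries: Normal PBS, Normal cGAMP, MMTV-PyMT tumor PBS, MMTV-PyMT tumor cGAMP, Implanted tumor PBS and Implanted tumor cGAMP. The transgene places an oncoprotein of polyomavirus under a viral promoter that is active in mammary epithelium, so tumours arise there without implantation. Implanted tumours were grown from tumour cells of such mice after a short culture, injected with Matrigel into the fat pad. cGAMP is a cyclic dinucleotide that activates STING, a signalling protein of innate immunity. The labels give no ages. According to the methods of the study, live cells positive for CD31 and negative for the leukocyte protein CD45 were sorted. Nothing ties a library to an experiment, so p-values measure the spread between these libraries.

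Recovered reads per library ranged from 9184658 to 12200551. All 6 EC markers (Pecam1, Cdh5, Kdr, Tek, Emcn and Cldn5) were present, with summed levels between 627 and 1487 FPKM over the libraries. Their sum was 880 to 992 FPKM in Normal PBS, 627 to 759 in MMTV-PyMT PBS and 870 to 1103 in Implanted PBS. Markers of other cells were present as well. The 6 epithelial markers summed to 313 to 395 FPKM in Normal PBS, 838 to 905 in MMTV-PyMT PBS and 345 to 494 in Implanted PBS. The 6 mural markers (of the cells that wrap vessels) summed to 884 to 996 FPKM in Normal PBS and stood at 200.5 to 279 in MMTV-PyMT PBS and at 185 to 226 in Implanted PBS. The 7 leukocyte markers measured summed to 17.2 to 68.1 FPKM in 17 libraries and to 213 in Implanted cGAMP replicate 2. In bulk libraries, fewer cells of a type and less RNA per cell cannot be told apart.

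**Figure D1:**
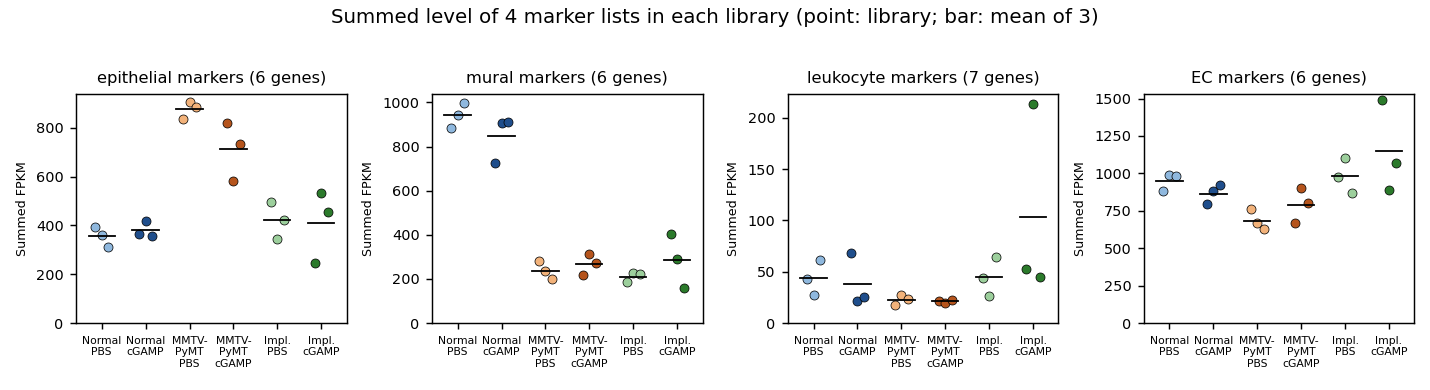
Summed FPKM of the epithelial, mural, leukocyte and EC marker lists (y axis, linear) in each library (points) by group (x axis), with the mean of the 3 libraries as a bar. Epithelial markers were highest in the MMTV-PyMT groups, mural markers were highest in the Normal groups, and 1 Implanted cGAMP library stood at 213 FPKM for leukocyte markers.

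Transport across the vessel wall starts at the EC. Glucose enters through facilitative carriers of the Slc2 family and lactate leaves or enters through the proton-coupled Slc16 carriers, while the heterodimer of Slc3a2 and Slc7a5 exchanges large neutral amino acids. Slc25 proteins sit in the inner mitochondrial membrane and supply substrates, phosphate and iron to the matrix. Members of the Slc19 and Slc46 families, known as folate and related carriers, can also import cyclic dinucleotides, and Slc15 members of the endolysosome carry peptide fragments and histidine and are known from innate immune cells.

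The member with the highest level was a mitochondrial carrier. Slc25a5, an exchanger of ADP and ATP, averaged 143 FPKM over the 18 libraries, followed by Slc39a1, a zinc importer, at 79.2. Next came Slc3a2 at 68.2 FPKM, the glutamine carrier Slc38a2 at 54.2 and the sodium-potassium-chloride cotransporter Slc12a2 at 46.1. The mitochondrial phosphate carrier Slc25a3 averaged 44.9 FPKM, the glucose carrier Slc2a1 41.2 and the second ADP/ATP exchanger Slc25a4 40.2. In the smaller classes the leading genes included the nucleoside carrier Slc29a1 (34.3 FPKM) and the purine base carrier Slc43a3 (34.2). Others were the choline-like transporter Slc44a1 (21.3), the phosphate carrier Slc20a1 (19.2) and Slc35a4 (17.3) of the nucleotide sugar class. The lactate and butyrate carrier Slc5a8 (16.1) and the vitamin C carrier Slc23a2 (14.9) led their own classes in this mean over all groups, although Slc5a8 averaged 1.70 FPKM in Normal PBS and 25.4 in Implanted PBS.

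Of the 193 members, 127 were at 1 FPKM or more in all 18 libraries. The members just inside the level rule, with 3 libraries at 1 FPKM, were Slc38a9, Slc26a9, Slc12a8, Slc23a3 and Slc8a2, with highest values between 1.34 and 1.70 FPKM. Slc9a9, Slc7a8 and Slc22a21 lay just outside with 2 libraries. Slc38a9 and Slc8a2 met the rule only through the Normal PBS libraries, and 9 members met it only through libraries of 1 tissue, so a difference in those genes is set in part by the rule. The 8 genes named here were picked for their place at the threshold, after their values were seen.

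The first comparison asked how the transporters of each EC population respond to cGAMP within 3 h. Differences are between group means of log2(FPKM + 1) and are given ± SE from limma over all 18 libraries, with p-values adjusted by the Benjamini-Hochberg method over 13983 genes. A gene passed the test at an adjusted p under 0.05 and is called where its log2 difference was also at least 1. In Normal ECs, 8 members were called higher and 0 lower. Of all genes tested, 3.02% were called higher and 0.687% lower there, 3.7% in all. In MMTV-PyMT ECs 3 members were called higher and 0 lower, against 2.49% and 0.0715% of all genes, 2.56% in all. In Implanted ECs 5 were called higher and 2 lower, against 6.13% and 1.09%, 7.22% in all. Without the fold limit, 79, 30 and 85 members passed in Normal, MMTV-PyMT and Implanted ECs, against 31.9%, 12% and 39.1% of all genes. The median difference over the members was -0.04, -0.02 and -0.005, and that over all genes -0.04, -0.04 and -0.01. With libraries scaled by their total recovered reads, the median of all genes in Implanted ECs became -0.25. The calls of members there became 4 higher and 5 lower, against 550 and 431 of all genes. With the voom fit on recovered reads the members had 12 higher and 9 lower there, and 19 and 5 in Normal ECs. All genes had 1185 and 640, and 798 and 324, in that fit.

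Slc15a3, the endolysosomal transporter of histidine and of bacterial peptide fragments, was the only member called in all 3 tissues. Its levels were 1.20, 0.768 and 1.21 FPKM in Normal PBS and 4.05, 3.84 and 3.44 in Normal cGAMP. In MMTV-PyMT they were 0.919, 0.807 and 0.803 under PBS and 2.23, 4.31 and 3.75 under cGAMP. In Implanted tumours they were 3.16, 2.94 and 3.23 under PBS and 47.1, 26.7 and 33.9 under cGAMP. In each tissue the lowest cGAMP library lay above the highest PBS library, and the Implanted cGAMP libraries lay far above all others. The log2 difference was 1.22 ± 0.18 in Normal (adjusted p = 0.000143), 1.24 ± 0.18 in MMTV-PyMT (adjusted p = 0.000209) and 3.13 ± 0.18 in Implanted ECs (adjusted p = 1.92e-09). The ratio of mean FPKM in Implanted ECs was 11.6. Under PBS it was also higher in Implanted than in MMTV-PyMT ECs (1.16 ± 0.18, adjusted p = 0.000116). Slc15a3 lies on chromosome 19 at 10839727 to 10859362 (mm10, plus strand) and is protein coding.

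None of the other endolysosomal carriers on the list was called under cGAMP, against 3.7%, 2.56% and 7.22% of all genes in Normal, MMTV-PyMT and Implanted ECs. Slc15a4, which carries the same kinds of substrate, fell in Normal ECs (-0.44, adjusted p = 0.0428) and did not pass in MMTV-PyMT (0.35) or Implanted ECs (0.13). Slc11a1, the metal exporter of phagosomes, and Slc29a3, a lysosomal nucleoside carrier, passed in none of the 3 tissues, and Slc37a2 is among the 28 rows below the level rule. Slc11a1 averaged 1.98 ± 2.05 FPKM (SD, n = 3) in Implanted cGAMP, where replicate 2 held 4.33 and the other libraries 1.03 and 0.587. Replicate 2 was the library with high leukocyte markers, and in that library Slc15a3 had its lowest value of the group. Without it the Slc15a3 difference in Implanted ECs was 3.32. The part of leukocytes in the Slc15a3 and Slc11a1 values was not tested.

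Slc2a6, a facilitative hexose carrier of intracellular membranes, rose in every tissue. Its PBS levels were 0.923, 0.289 and 0.632 FPKM in Normal, 0.798, 0.431 and 1.57 in MMTV-PyMT and 7.03, 3.69 and 5.23 in Implanted ECs. Under cGAMP the Normal libraries had 2.64, 2.10 and 1.80, the MMTV-PyMT libraries 4.77, 4.45 and 5.58 and the Implanted libraries 38.3, 36.95 and 33.97. The cGAMP and PBS libraries did not overlap in any tissue. The log2 differences were 0.99 ± 0.21 in Normal (adjusted p = 0.0022), 1.66 ± 0.21 in MMTV-PyMT (adjusted p = 3.99e-05) and 2.60 ± 0.21 in Implanted ECs (adjusted p = 7.48e-08), the first just under the fold limit. Without Implanted cGAMP replicate 2 the last was 2.59. The gene lies on chromosome 2 at 27021363 to 27027998, minus strand.

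Slc25a22, which carries glutamate into mitochondria, rose in the tumours. PBS levels were 2.02, 2.24 and 2.05 FPKM in Normal, 1.32, 1.40 and 1.60 in MMTV-PyMT and 2.79, 2.47 and 2.01 in Implanted ECs. After cGAMP the Normal libraries had 2.88, 2.73 and 2.04, the MMTV-PyMT libraries 2.88, 4.69 and 4.30 and the Implanted libraries 15.2, 12.04 and 13.4. The Normal libraries overlapped, while both tumour groups separated fully, Implanted ECs by the widest gap. The difference was 0.19 ± 0.14 in Normal (adjusted p = 0.329), 1.004 ± 0.14 in MMTV-PyMT (adjusted p = 0.000111) and 2.09 ± 0.14 in Implanted ECs (adjusted p = 9.60e-09). The MMTV-PyMT value sat at the fold limit and ranged from 0.90 to 1.17 when single libraries were left out, falling under it without PBS replicate 1 or 2 or cGAMP replicate 2 or 3, and it was 0.91 and 0.92 under quantile normalization and total-read scaling.

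Promoter sequences (RefSeq, GRCm38.p6, the assembly of mm10) were matched by symbol for 147 of the 193 members, as the 250 bases before each annotated start. Slc25a22 has 3 annotated starts, and the window of 1 holds the letters GAAA, any 2 bases and GAAA again, a pattern of the interferon-stimulated response element, searched on both strands. That pattern occurs in 2.98% of all 32851 such windows. The window is shown because the gene is among the strongest responders, with the match in capitals, 79 to 70 bases before the start, at chr7:141435376-141435625 (minus strand).
Slc25a22: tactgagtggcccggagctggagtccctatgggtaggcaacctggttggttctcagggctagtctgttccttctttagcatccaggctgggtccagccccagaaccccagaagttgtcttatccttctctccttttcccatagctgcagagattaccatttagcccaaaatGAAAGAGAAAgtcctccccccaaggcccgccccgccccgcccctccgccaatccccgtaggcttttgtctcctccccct
The windows of the other 2 starts, and those of Slc2a6 and Slc25a28, hold neither this pattern nor GGGA, any base, TT, any base and CC, a pattern of kB sites found in 0.98% of all windows. A match describes letters only.

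Slc25a28 (mitoferrin-2), an importer of iron into mitochondria, rose in all 3 tissues. Its levels went from 3.65, 3.22 and 3.08 FPKM to 12.6, 10.3 and 12.3 in Implanted ECs, with no overlap. The log2 difference was 1.56 ± 0.10 there (adjusted p = 6.38e-09), 0.70 ± 0.10 in Normal (adjusted p = 0.0001) and 0.64 ± 0.10 in MMTV-PyMT (adjusted p = 0.000384). Of the most abundant mitochondrial carriers, Slc25a5, Slc25a3 and Slc25a4, none passed in any tissue, with differences between -0.21 and 0.12. Slc25a3 in Implanted ECs passed as a fall under quantile normalization (-0.29) and total-read scaling (-0.26). Slc25a29, a carrier of basic amino acids, fell in MMTV-PyMT (-0.75, adjusted p = 0.000437) and in Implanted ECs (-0.79, adjusted p = 6.62e-05), and Slc25a10, the dicarboxylate carrier, fell in Implanted ECs (-0.80, adjusted p = 0.00167).

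**Figure D2:**
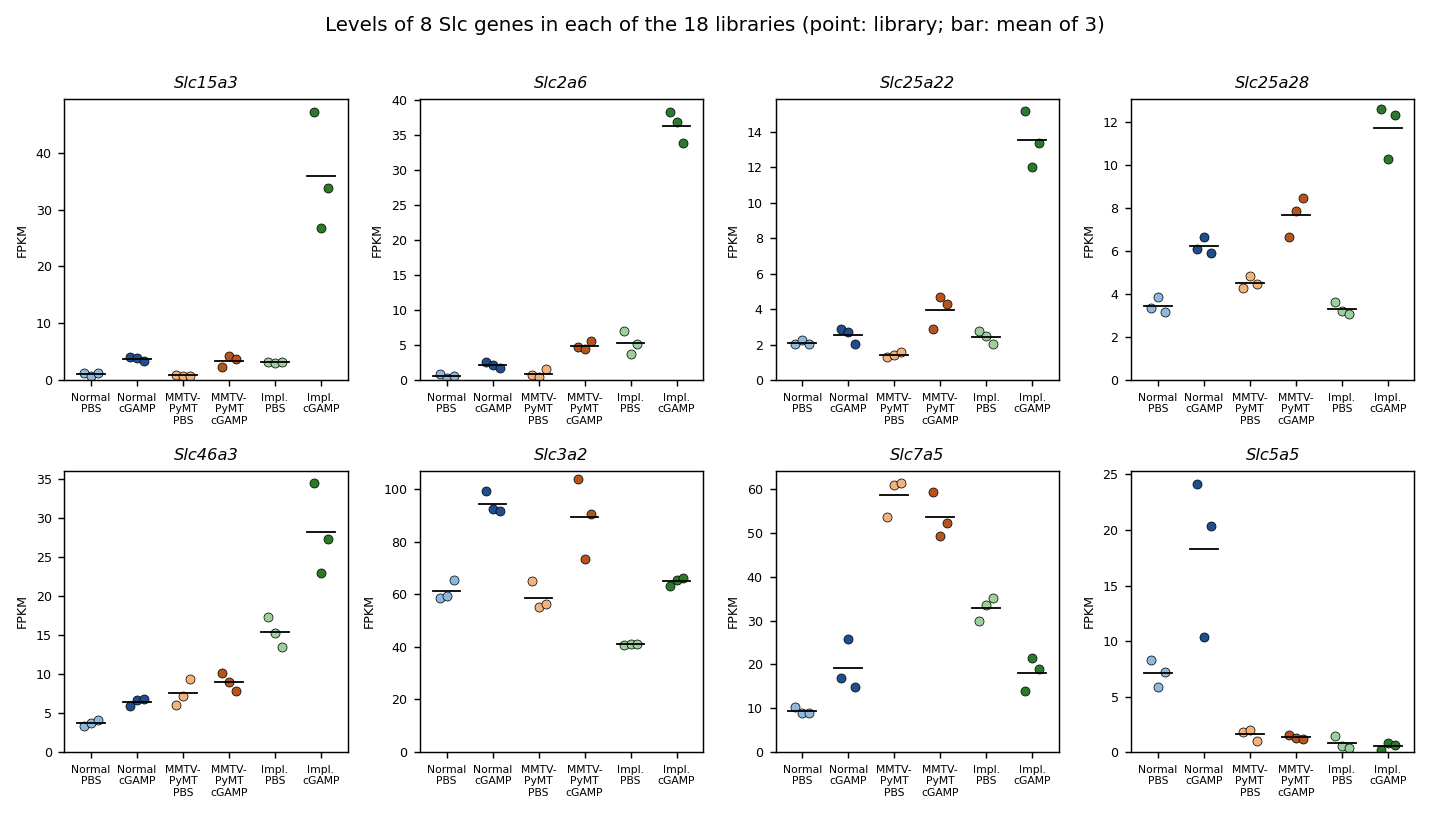
FPKM (y axis, linear, own scale in each panel) of 8 members in the 18 libraries (points) by group (x axis), with the mean of 3 libraries as a bar. Slc15a3, Slc2a6 and Slc25a22 were highest in all 3 Implanted cGAMP libraries, Slc3a2 was higher under cGAMP in each tissue, and Slc7a5 was higher under cGAMP in Normal and lower in Implanted ECs.

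The importers of cyclic dinucleotides were examined because cGAMP was the agent injected. Slc46a3 had PBS levels of 3.38, 3.67 and 4.13 FPKM in Normal, 6.07, 7.17 and 9.41 in MMTV-PyMT and 17.3, 15.3 and 13.5 in Implanted ECs. Under cGAMP it stood at 5.93, 6.69 and 6.81 in the Normal libraries, at 10.2, 9.03 and 7.86 in those of MMTV-PyMT and at 34.5, 22.97 and 27.3 in those of Implanted tumours. It rose in Normal (0.66 ± 0.15, adjusted p = 0.00364) and Implanted ECs (0.83 ± 0.15, adjusted p = 0.000434), and its difference of 0.24 ± 0.15 in MMTV-PyMT did not pass (adjusted p = 0.333), with overlapping libraries. Slc19a1, the reduced folate carrier, averaged between 1.08 and 1.96 FPKM over the groups, and Slc46a1, the proton-coupled folate transporter, between 0.851 and 4.70. Neither passed between cGAMP and PBS in any tissue. The fourth gene of this list, Slc46a2, had no row in the expression table and was not analysed here.

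Amino acid carriers showed smaller shifts that differed by gene. Slc3a2, the heavy chain shared by several exchangers, rose from 61.1 ± 3.77 to 94.5 ± 4.10 FPKM in Normal, from 58.8 ± 5.32 to 89.3 ± 15.2 in MMTV-PyMT and from 40.98 ± 0.197 to 64.9 ± 1.57 in Implanted ECs (mean ± SD, n = 3). The differences were 0.62 ± 0.10, 0.58 ± 0.10 and 0.65 ± 0.10, with adjusted p of 0.000258, 0.0009 and 8.39e-05. In each tissue every cGAMP library lay above every PBS library. Slc7a11, the cystine exchanger that pairs with Slc3a2, rose as well, by 0.64, 0.47 and 0.40 (adjusted p = 0.00178, 0.0305 and 0.025), from group means of no more than 0.436 FPKM under PBS. It met the level rule with 4 libraries at 1 FPKM, the highest at 1.15, so its rise may be set in part by that rule.

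Slc7a5, the light chain that carries leucine and other large neutral amino acids, moved in opposite directions. Its PBS levels were 10.3, 8.91 and 8.84 FPKM in Normal and 29.9, 33.7 and 35.2 in Implanted ECs. Under cGAMP the Normal libraries had 16.9, 25.8 and 14.9 and the Implanted libraries 13.8, 21.4 and 19.1, so that all 3 Normal libraries lay higher and all 3 Implanted libraries lower than their PBS libraries. The log2 difference was 0.93 ± 0.17 in Normal (adjusted p = 0.000643) and -0.85 ± 0.17 in Implanted ECs (adjusted p = 0.000864). In MMTV-PyMT the levels of 53.6, 60.9 and 61.6 under PBS overlapped with 59.4, 49.4 and 52.4 under cGAMP (-0.13 ± 0.17, adjusted p = 0.681). Slc7a1, the arginine carrier, rose in Normal ECs from 5.41 ± 0.241 to 10.7 ± 0.537 FPKM (0.86, adjusted p = 3.74e-05) and did not pass in the tumours (0.06 and -0.05). Slc7a2, its relative, had 4.01, 9.53 and 2.96 FPKM in Implanted cGAMP against 2.46, 1.78 and 2.17 under PBS (0.93 ± 0.25, adjusted p = 0.00833). Its highest library was replicate 2, the one with high leukocyte markers, without which the difference was 0.51. Other markers also varied in Implanted cGAMP. The 6 mural markers summed to 157 to 405 FPKM there (185 to 226 under PBS) and 5 fibroblast markers to 199.6 to 482 (184 to 213 under PBS). The part of any of these cells in Slc7a2 was not tested. The glutamine carrier Slc1a5 rose in Normal (0.65) and MMTV-PyMT ECs (0.53, adjusted p = 0.00398 and 0.03), and Slc38a2 rose in Normal ECs (0.42, adjusted p = 0.0134).

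On a list of 6 glucose and lactate carriers (Slc2a1, Slc2a3, Slc2a4, Slc2a6, Slc16a1 and Slc16a3), Slc2a6 was called under cGAMP and the others were not. Over all genes, 3.7%, 2.56% and 7.22% were called in Normal, MMTV-PyMT and Implanted ECs. Slc2a1, the main glucose carrier of endothelium, went from 62.6, 61.1 and 64.97 FPKM under PBS to 87.1, 96.4 and 72.9 under cGAMP in Implanted ECs (0.43 ± 0.11, adjusted p = 0.00635), with no overlap, and did not pass in Normal (-0.20) or MMTV-PyMT ECs (-0.15). Under quantile normalization this difference was -0.02 (adjusted p = 0.921). Slc16a1, a lactate carrier for uptake and release, rose in Implanted (0.95 ± 0.15, adjusted p = 0.000105) and Normal ECs (0.55 ± 0.15, adjusted p = 0.0109). Slc2a3, a high-affinity glucose carrier, rose in the same 2 tissues (0.72 and 0.74, adjusted p = 0.00769 and 0.00506), from means of 1.47 and 0.767 FPKM. Slc16a3, the lactate exporter of glycolytic cells, rose in Normal (0.59, adjusted p = 0.0105) and MMTV-PyMT ECs (0.53, adjusted p = 0.0412), from means of 1.03 and 0.821 to 2.06 and 1.64 FPKM.

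Beside Slc15a3, the members called in Normal ECs were 3 of the monocarboxylate class, 2 carriers of inorganic anions, 1 of bile acids and 1 mitochondrial carrier. Slc5a8, the sodium-coupled monocarboxylate carrier, had 1.41, 2.17 and 1.52 FPKM under PBS and 4.96, 8.20 and 5.25 under cGAMP (1.38 ± 0.25, adjusted p = 0.000639). Slc16a12, a creatine carrier, rose by 1.19 ± 0.12 (adjusted p = 2.39e-06) and Slc20a1, the sodium-phosphate cotransporter, from 6.89, 6.17 and 7.18 to 14.3, 16.98 and 15.6 FPKM (1.10 ± 0.10, adjusted p = 7.99e-07). In these 3 genes every cGAMP library lay above every PBS library, as in 20.9% of all genes in Normal ECs. Slc5a5, the iodide carrier of the thyroid and lactating breast, had 8.27, 5.88 and 7.22 FPKM under PBS and 24.1, 10.3 and 20.4 under cGAMP (1.18 ± 0.28, adjusted p = 0.00429). Slc16a11, a monocarboxylate carrier, differed by 1.12 ± 0.28, the liver-type mitochondrial carrier Slc25a47 by 1.05 ± 0.15 and the bile acid carrier Slc10a1 by 1.04 ± 0.22. Calls depended on single libraries here. Without Normal cGAMP replicate 3 the last 3 were 0.87, 0.97 and 0.88, and Slc5a5 was 0.95 without Normal cGAMP replicate 1 and did not pass with a pseudocount of 0.1 (adjusted p = 0.0552). Replicate 1 also held the most Ptprc, a leukocyte marker, among Normal cGAMP libraries (9.73, 0.903 and 0.985 FPKM), and its part in these genes was not tested. The 6 milk genes summed to 170 to 294 FPKM under PBS and to 93.6 to 101 under cGAMP in Normal ECs, with 3 called lower, and their part was not tested either.

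The members called lower under cGAMP were in Implanted ECs. Slc28a3, a concentrating nucleoside carrier, went from 25.4, 26.2 and 39.8 to 6.27, 9.90 and 12.7 FPKM with no overlap (-1.59 ± 0.21, adjusted p = 1.62e-05). Slc34a2, a sodium-phosphate cotransporter of epithelia, had 5.98, 4.55 and 8.84 FPKM under PBS and 1.60, 3.01 and 3.57 under cGAMP (-1 ± 0.24, at the fold limit, adjusted p = 0.00316). Its value was -0.78 without PBS replicate 3 and -0.76 without cGAMP replicate 1, both under the fold limit. Among 6 milk genes, which mammary epithelium makes, 1 was called lower in Implanted ECs, and their sum went from 568 to 856 FPKM under PBS to 239 to 395 under cGAMP. None of the 6 epithelial markers was called. The part of such cells in both falls was not tested. Slc10a6, a carrier of sulphated steroids, had 1.81, 5.74 and 5.81 FPKM under PBS and 14.2, 7.84 and 8.51 under cGAMP. Its difference of 1.10 ± 0.27 (adjusted p = 0.00418) was 0.68 without PBS replicate 1, 0.86 without cGAMP replicate 1 and 0.81 under total-read scaling, and in a fit of the Implanted libraries alone its adjusted p was 0.0638.

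**Figure D3:**
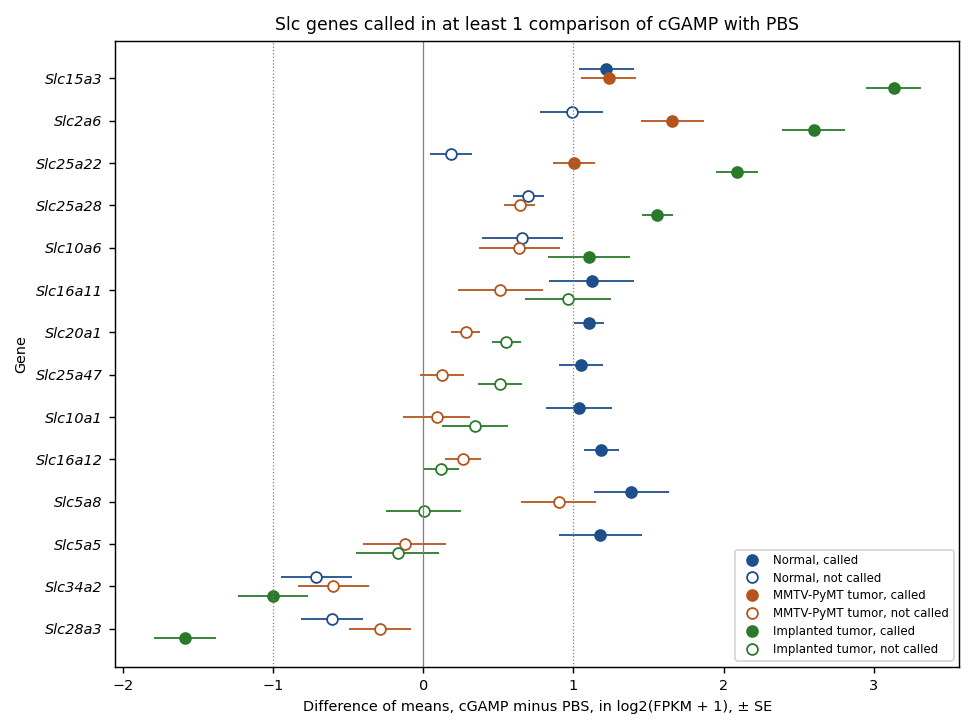
Log2 difference between cGAMP and PBS (x axis, group means of log2(FPKM + 1), bars ± SE) of the 14 members called in at least 1 tissue (y axis), with filled points for called and open points for not called. Slc15a3 was called in all 3 tissues, Slc2a6 and Slc25a22 in both tumours, and the calls of Slc28a3 and Slc34a2 were the falls in Implanted ECs.

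Among metal carriers no member was called under cGAMP, against 3.7%, 2.56% and 7.22% of all genes in Normal, MMTV-PyMT and Implanted ECs. Slc39a14, a zinc and iron importer, rose in Normal ECs (0.53, adjusted p = 0.00267). Slc39a8, another importer of zinc, rose in MMTV-PyMT (0.67, adjusted p = 0.0203) and Implanted ECs (0.70, adjusted p = 0.00491), and Slc11a2, the ferrous iron carrier, in the same groups (0.37 and 0.37, adjusted p = 0.0167 and 0.00551). Slc40a1, the iron exporter, fell in Implanted ECs (-0.48, adjusted p = 0.00883). The metallothionein Mt2, a metal-binding protein outside the members, rose in all 3 tissues, by 3.47, 1.74 and 2.42 on the log2 scale. Of the ion carriers, Slc12a2 rose in Normal ECs from 43.2, 34.4 and 36.4 to 70.5, 57.6 and 72.4 FPKM (0.80 ± 0.10, adjusted p = 2.74e-05) and had differences of -0.31 and -0.12 in the tumours that did not pass.

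Whether the response differed between tissues was tested on the difference of the cGAMP effects. Between Implanted and MMTV-PyMT ECs, 2 members were called higher and 1 lower, against 1.85% and 0.629% of all genes, 2.47% in all. Slc15a3 (1.90 ± 0.26, adjusted p = 0.000289) and Slc25a22 (1.08 ± 0.20, adjusted p = 0.00222) responded more strongly in Implanted ECs, and Slc28a3 had the larger fall there (-1.30 ± 0.29, adjusted p = 0.00872). The value of Slc25a22 was 0.92 without MMTV-PyMT cGAMP replicate 1 and 0.99 without Implanted PBS replicate 3. The split of higher and lower calls was 1 and 2 with total-read scaling, 2 and 2 under quantile normalization and 4 and 5 in the voom fit. For all genes these splits were 143 and 157, 195 and 126, and 247 and 275. Between Implanted and Normal ECs, 7 were called higher and 6 lower, against 3.75% and 0.937% of all genes, 4.68% in all. The largest were Slc15a3 (1.91 ± 0.26), Slc25a22 (1.90 ± 0.20), Slc7a5 (-1.78 ± 0.24), Slc2a6 (1.61 ± 0.30) and the potassium-chloride cotransporter Slc12a7 (1.41 ± 0.22), with adjusted p of 0.000124, 1.38e-05, 0.000116, 0.00144 and 0.00041. The value of Slc2a6 did not pass with a pseudocount of 0.1 (1.03, adjusted p = 0.189) or in the voom fit (0.82, adjusted p = 0.277). With total-read scaling the split between Implanted and Normal ECs was 5 higher and 14 lower, and in the voom fit 9 higher and 12 lower. For all genes they were 254 and 372, and 572 and 356. Between MMTV-PyMT and Normal ECs, 0 were called higher and 4 lower, against 1.28% and 0.472% of all genes, 1.75% in all. They were Slc12a2 (-1.11 ± 0.14, adjusted p = 0.000657), Slc7a5 (-1.06 ± 0.24, adjusted p = 0.0133), Slc25a29 (-1.03 ± 0.17, adjusted p = 0.00262) and Slc25a34 (-1.02 ± 0.28, adjusted p = 0.0334). Slc25a34, whose mean level was 0.892 FPKM, ranged from -1.23 to -0.85 when single libraries were left out. It lost its call without Normal PBS replicate 1, 2 or 3, Normal cGAMP replicate 1 or 3, MMTV-PyMT PBS replicate 1 or 3, or MMTV-PyMT cGAMP replicate 2 or 3. In the voom fit 5 members were higher and 8 lower, against 324 and 112 of all genes.

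The second set of comparisons asked how the transporters of ECs differ between tissues under PBS. Between MMTV-PyMT and Normal ECs, 50 of 193 members (25.9%) were called, against 13.9% of all genes. They were 30 higher and 20 lower in MMTV-PyMT, against 6.24% and 7.67% of all genes. Between Implanted and Normal ECs 40 (20.7%) were called, against 11.5% of all genes. They were 20 in each direction, against 5.74% higher and 5.71% lower. Between Implanted and MMTV-PyMT ECs 23 (11.9%) were called, against 7.33% of all genes. They were 6 higher and 17 lower in Implanted ECs, against 4.28% and 3.05%. The 2 comparisons with Normal share its PBS libraries. Some of the called genes met the level rule through 1 tissue only, so their calls are set in part by that rule. They were Slc6a4, lower in both tumours than in Normal, and Slc6a2, higher in MMTV-PyMT than in Normal and Implanted ECs. Slc8a2, Slc4a3 and Slc6a17, lower in Implanted than in Normal ECs, were the others. Medians over the members were 0.21, 0.07 and -0.12, and over all genes 0.02, 0.01 and -0.01. With total-read scaling the members split into 16 higher and 24 lower for Implanted against Normal and 6 and 28 between the tumours. Over all genes that scaling gave 613 higher and 1032 lower, and 455 and 591. In the voom fit the members split into 36 and 34 for MMTV-PyMT against Normal and 17 and 29 between the tumours. All genes split into 1232 and 2124, and 1366 and 709, in that fit.

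Of the 6 EC markers, 1 was called lower against Normal in each tumour. Markers of other cells also differed between tissues. Of 6 epithelial markers, 4 were called higher in MMTV-PyMT than in Normal ECs, and 4 were called lower in Implanted than in MMTV-PyMT. Between Implanted and Normal ECs, 1 of the 6 was called higher and 1 lower in Implanted. All 6 mural markers were called lower in MMTV-PyMT than in Normal ECs and 5 of 6 in Implanted. Epcam, of epithelium, averaged 60.1, 204 and 98.7 FPKM in Normal, MMTV-PyMT and Implanted PBS. Milk genes summed to 170 to 294 FPKM in Normal, 839.5 to 1401 in MMTV-PyMT and 568 to 856 in Implanted PBS, with 3 of 6 called higher in MMTV-PyMT and 2 higher and 1 lower in Implanted ECs against Normal. The 4 lymphatic EC markers measured summed to 48.2 to 55.2 FPKM in Normal, 18.2 to 27.9 in MMTV-PyMT and 48.8 to 66.3 in Implanted PBS, with 3 called lower in MMTV-PyMT, and 2 lower and 1 higher in Implanted ECs. Leukocyte markers were called lower against Normal for 3 of 7 in MMTV-PyMT tumours and for 2 of 7 in Implanted tumours. The 5 fibroblast markers summed to 56.1 to 64.8, 84.7 to 138 and 184 to 213 FPKM in Normal, MMTV-PyMT and Implanted PBS, with 1 called higher in each tumour, 1 lower in MMTV-PyMT and 3 lower in Implanted ECs. Of 6 adipocyte markers 1, Plin4, had a row in the expression table, and the other 5 had none and were not analysed here. Plin4 had 3.82 to 5.52 FPKM in Normal PBS, 0.145 to 0.463 in MMTV-PyMT PBS and 0.414 to 0.445 in Implanted PBS and was called lower in both tumours. The part of these cells in the transporter differences was not tested.

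Calls by class are given as counts. They stand beside 6.24% of all genes called higher and 7.67% lower in MMTV-PyMT, and 5.74% and 5.71% in Implanted ECs, each against Normal. Of the 25 carriers of inorganic ions, 1 was called higher in MMTV-PyMT and 8 lower, and 7 lower and 0 higher in Implanted ECs, with class medians of -0.33 and -0.46. Of the 7, Slc8a2 met the level rule only through Normal PBS libraries and Slc4a3 only through those of 1 tissue, so their falls are set in part by that rule. Of 37 mitochondrial carriers, 5 were called higher in MMTV-PyMT (median 0.31) and 1 in Implanted ECs and none lower against Normal. Between the tumours, 3 were called lower in Implanted than in MMTV-PyMT ECs, against 3.05% of all genes. In MMTV-PyMT ECs, 4 of 7 nucleoside and nucleobase carriers were higher and 1 lower. Amino acid carriers went both ways, with 4 higher and 3 lower in MMTV-PyMT and 5 higher and 4 lower in Implanted ECs. Of those 5, Slc38a10 was 0.97 without Normal PBS replicate 3 and 0.99 without Implanted PBS replicate 2. Slc15a3 lost its call without Normal PBS replicate 2 or Implanted PBS replicate 1 or 3, with 0.90 as the lowest value, and Slc38a3 without Normal PBS replicate 1 or 3 or Implanted PBS replicate 1 or 3, with 0.88 as the lowest. With total-read scaling these 3 and Slc7a7 were not called (0.83, 0.90, 0.94 and 0.94). Among the 4 lower, Slc6a17 met the level rule through 1 tissue only.

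**Figure D4:**
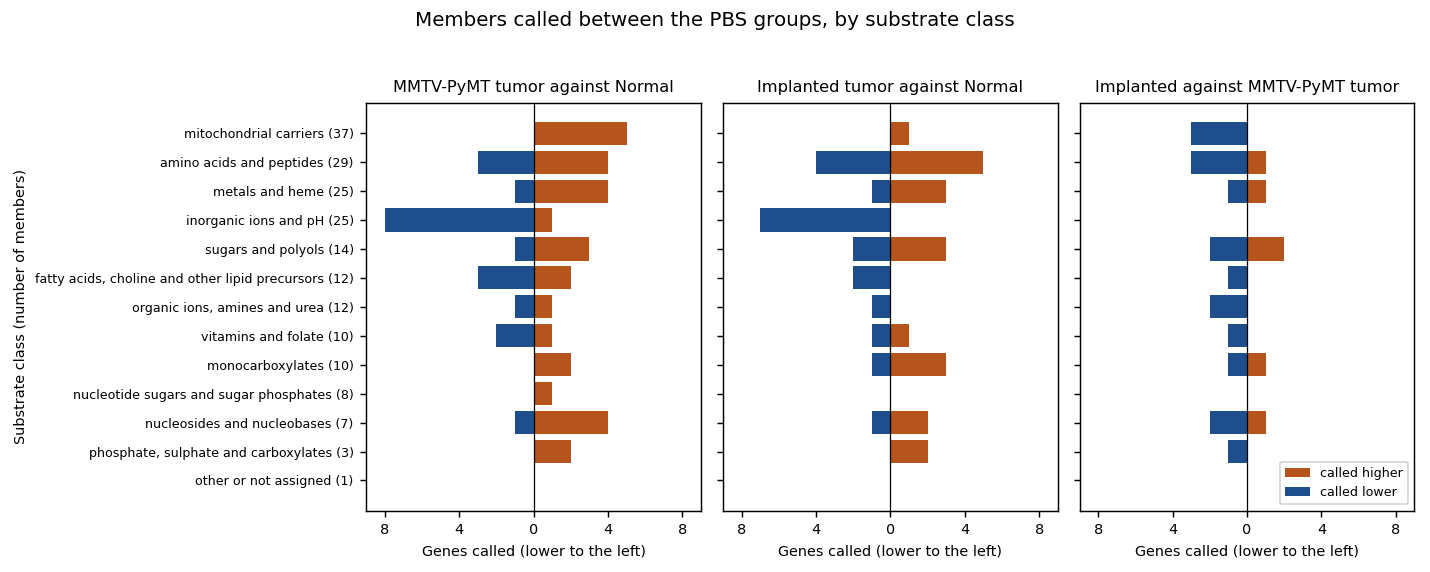
Number of members called higher (right) or lower (left) between PBS groups (x axis, genes) in each substrate class (y axis, class size in brackets), one panel per comparison. Carriers of inorganic ions had 8 and 7 genes called lower in MMTV-PyMT and Implanted ECs against Normal. Of the 7, Slc8a2 and Slc4a3 met the level rule through 1 tissue. Between the tumours, 17 of the 23 calls were lower in Implanted, among them Slc6a2, which also met that rule through 1 tissue.

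Of the 6 glucose and lactate carriers on the list, 3 were called higher and 1 lower in Implanted than in Normal ECs (5.74% and 5.71% of all genes), and 2 were called higher than in MMTV-PyMT ECs (4.28% of all genes). Slc16a3 had 1.15, 0.809 and 1.15 FPKM in Normal, 0.779, 1.08 and 0.607 in MMTV-PyMT and 14.2, 17.6 and 10.9 in Implanted PBS, so that only the Implanted libraries were high. It was higher in Implanted ECs by 2.88 ± 0.16 against Normal (adjusted p = 1.36e-09) and by 3.05 ± 0.16 against MMTV-PyMT (adjusted p = 3.22e-09). Slc2a1 had 20.03, 19.5 and 22.6 FPKM in Normal, 32.6, 31.4 and 30.9 in MMTV-PyMT and 62.6, 61.1 and 64.97 in Implanted PBS, with no overlap between tissues. It was called in Implanted against Normal (1.56 ± 0.11, adjusted p = 1.80e-08) and passed below the fold limit in MMTV-PyMT against Normal (0.59 ± 0.11, adjusted p = 0.000322). Slc2a4, the insulin-regulated glucose carrier of fat and muscle, ran the other way with 9.16, 9.14 and 10.1 FPKM in Normal, 1.30, 1.43 and 1.79 in MMTV-PyMT and 0.646, 0.877 and 1.31 in Implanted ECs (-2.07 ± 0.12 and -2.44 ± 0.12, adjusted p = 3.27e-09 and 4.59e-10). The adipocyte marker Plin4 was called lower in the same comparisons. Slc2a6 was also higher in Implanted than in Normal (1.95) and MMTV-PyMT ECs (1.72), and so was Slc45a4, known as a sugar carrier, against MMTV-PyMT (1.83). Hif1a, the oxygen-regulated factor known to act on glycolytic genes, averaged 37.6, 48.96 and 55.4 FPKM. Its rise of 0.55 in Implanted ECs passed (adjusted p = 0.00145) but lay below the fold limit. Hif1a is 1 of 14 regulators examined, of which 2 were called higher and 2 lower in Implanted against Normal ECs. Its part in these carriers was not tested.

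The promoter windows of both carriers are shown for the letters ACGTG, the core of the hypoxia response element, in capitals. The core was searched on both strands and is short enough to occur in 16.6% of all windows. Slc16a3 holds it 27 to 23 and 14 to 10 bases before the start, at chr11:120948817-120949066 (plus strand), and Slc2a1 36 to 32 bases before the start, at chr4:119108495-119108744 (plus strand).
Slc16a3: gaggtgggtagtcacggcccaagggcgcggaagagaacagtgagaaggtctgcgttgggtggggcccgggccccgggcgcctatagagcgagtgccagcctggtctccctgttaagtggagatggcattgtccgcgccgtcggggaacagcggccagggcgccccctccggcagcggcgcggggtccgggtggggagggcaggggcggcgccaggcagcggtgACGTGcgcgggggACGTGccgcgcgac
Slc2a1: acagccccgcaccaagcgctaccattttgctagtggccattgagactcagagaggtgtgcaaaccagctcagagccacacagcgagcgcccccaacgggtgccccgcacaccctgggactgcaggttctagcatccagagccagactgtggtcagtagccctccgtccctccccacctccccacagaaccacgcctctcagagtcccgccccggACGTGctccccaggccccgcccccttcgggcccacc
These are matches of letters, with no measurement of binding.

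The amino acid carriers Slc38a3 and Slc6a14 were highest in MMTV-PyMT ECs. Slc38a3, a glutamine carrier, had 0.193, 0.431 and 0.192 FPKM in Normal, 13.2, 12.8 and 15.4 in MMTV-PyMT and 1.99, 1.09 and 1.61 in Implanted PBS. Its MMTV-PyMT libraries lay far above both other groups (3.54 ± 0.17 against Normal, adjusted p = 5.30e-10, and -2.54 ± 0.17 for Implanted against MMTV-PyMT, adjusted p = 2.19e-08). Slc6a14, a carrier of neutral and basic amino acids, had 4.61, 5.88 and 4.56 FPKM in MMTV-PyMT, with means of 0.0746 in Normal and 0.799 in Implanted ECs (2.48 and -1.74). The glucose carrier Slc5a1 (2.13), the mannose and fructose carrier Slc5a9 (2.16), the phosphate carrier Slc34a2 (2.17), the urate and hexose carrier Slc2a9 (1.85) and the zinc exporter Slc30a2 of milk-secreting cells (1.78) were also called higher in MMTV-PyMT than in Normal ECs. Slc38a3, Slc5a1, Slc6a14, Slc5a9 and Slc34a2 were called lower in Implanted than in MMTV-PyMT ECs, where Slc5a9 (-1.04) and Slc34a2 (-1.003) lay at the limit. Slc5a9 was -0.95 without Implanted PBS replicate 2 and -0.99 without MMTV-PyMT PBS replicate 2. Slc34a2 lost its call without Implanted PBS replicate 1 or 2 or MMTV-PyMT PBS replicate 2 or 3, with -0.81 as the smallest value. These genes were grouped after their values were seen. Other sodium-coupled carriers were called lower in MMTV-PyMT than in Normal ECs, among them Slc5a5 (-1.66), Slc28a2 (-1.39), Slc6a6 (-1.33) and the glycine carrier Slc6a9 (-1.13). Among the PBS groups, the summed epithelial markers given above were also highest in MMTV-PyMT. The milk sums reached their highest values there too, but overlapped with those of Implanted PBS. Of 6 milk genes, 1 was called higher and 2 lower in Implanted than in MMTV-PyMT ECs under PBS. The part of epithelial cells in these carriers was not tested.

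**Figure D5:**
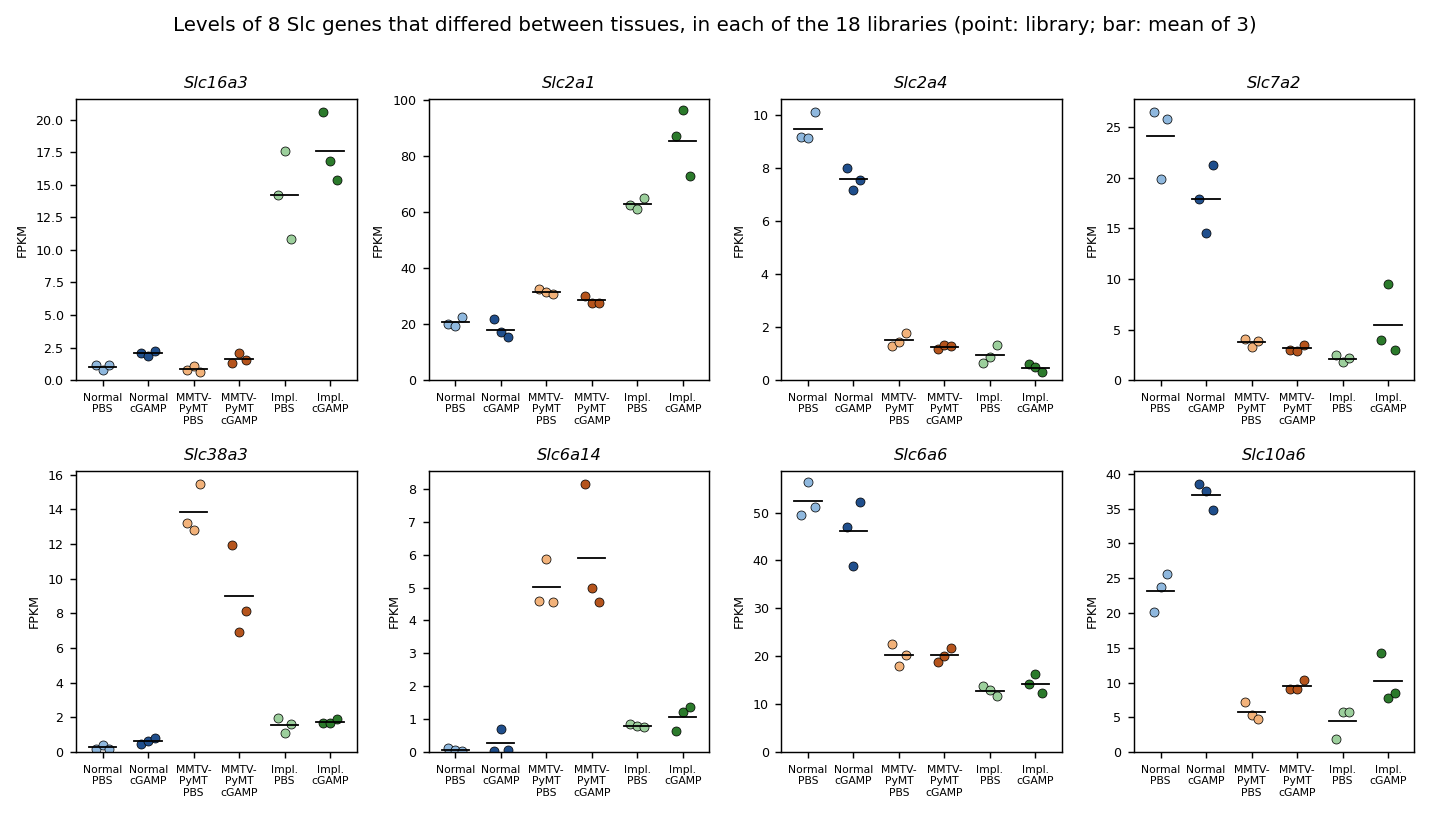
FPKM (y axis, linear, own scale in each panel) of 8 members that differed between tissues in the 18 libraries (points) by group (x axis), with the mean of 3 libraries as a bar. Slc16a3 and Slc2a1 were highest in Implanted, Slc38a3 and Slc6a14 in MMTV-PyMT, and Slc2a4, Slc7a2, Slc6a6 and Slc10a6 in Normal libraries.

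Other amino acid carriers were also split by tissue. Slc7a5 was higher in both tumours than in Normal ECs, with 53.6, 60.9 and 61.6 FPKM in MMTV-PyMT and 29.9, 33.7 and 35.2 in Implanted against 10.3, 8.91 and 8.84 in Normal (2.53 ± 0.17 and 1.72 ± 0.17, adjusted p = 1.07e-08 and 5.68e-07). Its partner Slc3a2 was not, with -0.06 in MMTV-PyMT (adjusted p = 0.653) and -0.56 in Implanted ECs (adjusted p = 0.000227). Slc7a2, the arginine carrier, had 26.5, 19.9 and 25.9 FPKM in Normal, 4.08, 3.23 and 3.85 in MMTV-PyMT and 2.46, 1.78 and 2.17 in Implanted ECs, the largest fall of any member in both comparisons (-2.40 ± 0.25 and -2.99 ± 0.25, adjusted p = 1.10e-06 and 1.06e-07). Slc6a6, the taurine carrier, was lower too, from 52.4 ± 3.58 FPKM in Normal to 20.3 ± 2.23 and 12.8 ± 1.06 (-1.33 and -1.95). Slc7a7, a light chain for cationic amino acids, was called higher in Implanted than in Normal ECs (1.11, adjusted p = 5.59e-06), which was 0.94 and under the fold limit with total-read scaling.

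Most calls against Normal among carriers of inorganic ions were falls, as counted above. Slc8a1, the sodium-calcium exchanger, fell from 4.52 ± 0.282 FPKM in Normal PBS to 0.542 ± 0.183 in MMTV-PyMT and 0.765 ± 0.111 in Implanted PBS (-1.85 and -1.65). Slc24a3, a potassium-dependent sodium-calcium exchanger (-1.46 and -1.96), Slc4a11 of the bicarbonate carrier family (-1.54 and -1.28), Slc26a10 of the anion exchanger family (-1.48 and -1.97) and Slc5a5 (-1.66 and -2.23) were called lower in both tumours. For each of these 5 genes all tumour PBS libraries lay below all Normal PBS libraries, as in 32.3% of all genes for MMTV-PyMT and 30.2% for Implanted ECs. Slc12a7 was called lower in MMTV-PyMT ECs only (-1.41 against -0.50 in Implanted), and Slc12a7 was higher in Implanted than in MMTV-PyMT ECs by 0.91 (adjusted p = 0.000255). Mural markers were higher in Normal libraries as well. The part of mural cells in these values was not tested.

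Nucleoside and nucleobase carriers differed in sign within the class. Slc28a3 was higher in both tumours, from 5.18 ± 0.656 FPKM in Normal to 26.1 ± 3.32 in MMTV-PyMT and 30.5 ± 8.09 in Implanted ECs (2.13 and 2.33). Slc29a1, the equilibrative carrier of adenosine, was called higher in MMTV-PyMT (1.37 ± 0.11, adjusted p = 5.56e-08) and stood just under the limit in Implanted ECs (0.99 ± 0.11, adjusted p = 1.54e-06). Slc28a2, a purine nucleoside carrier, fell to 2.29 ± 0.245 and 0.648 ± 0.161 FPKM from 7.68 ± 1.37 (-1.39 and -2.39). Slc43a3, a purine base carrier known from endothelium, was lower in MMTV-PyMT ECs (-0.92) and higher in Implanted than in MMTV-PyMT ECs by 1.40 ± 0.13 (adjusted p = 8.37e-07).

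Among 25 metal carriers, ECs of MMTV-PyMT tumours had 4 calls above Normal and 1 below, against 6.24% and 7.67% of all genes. Implanted ECs had 3 above and 1 below, against 5.74% and 5.71%. Slc39a11, a zinc carrier, rose from 3.10 ± 0.284 FPKM in Normal to 11.2 ± 1.91 in MMTV-PyMT and 11.3 ± 0.111 in Implanted ECs (1.56 and 1.59), and Slc31a1, the copper importer, by 1.49 and 0.998. Slc39a8 ran the other way, at 7.33 ± 1.61, 3.60 ± 0.424 and 1.84 ± 0.499 FPKM (-0.84 and -1.55, adjusted p = 0.000723 and 2.69e-06). Slc41a2, a magnesium carrier, was called higher in MMTV-PyMT than in Normal ECs (1.59). Tfrc, the transferrin receptor outside the members, was higher in both tumours (1.85 and 1.88). Among phosphate carriers, Slc20a1 was called higher in both, with 6.89, 6.17 and 7.18 FPKM in Normal, 15.4, 15.1 and 13.4 in MMTV-PyMT and 26.2, 23.3 and 23.03 in Implanted PBS, although its MMTV-PyMT difference of 1.01 ± 0.10 was 0.96 without Normal PBS replicate 2, 0.98 without MMTV-PyMT PBS replicate 1 and 0.99 without MMTV-PyMT PBS replicate 2.

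Lipid carriers, monocarboxylate carriers and vitamin carriers made up the remainder. Slc10a6 fell from 23.1 ± 2.79 FPKM in Normal to 5.79 ± 1.29 in MMTV-PyMT and 4.46 ± 2.29 in Implanted ECs (-1.84 and -2.25). Of the fatty acid transport proteins, Slc27a4 was called higher in MMTV-PyMT (1.47), Slc27a3 lower in both tumours (-1.38 and -1.85), and Slc27a1 lower in Implanted than in MMTV-PyMT ECs (-1.12). Slc5a8 rose from 1.70 ± 0.407 FPKM in Normal to 12.3 ± 2.10 in MMTV-PyMT and 25.4 ± 3.28 in Implanted ECs (2.30 and 3.29), the largest rise of any member in Implanted ECs. Slc46a3 was higher in Implanted than in Normal ECs by 1.79 ± 0.15 (adjusted p = 1.17e-07), called there, and by 0.84 ± 0.15 in MMTV-PyMT (adjusted p = 0.000221), below the limit. Slc46a1 was called higher in MMTV-PyMT (1.41 ± 0.19, adjusted p = 1.44e-05). Slc6a4, the serotonin carrier, had 3.05, 2.96 and 2.63 FPKM in Normal PBS and at most 0.191 in any tumour PBS library (-1.76 and -1.81), and it passed the level rule through 1 tissue only.

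Of 28 transport genes outside the Slc names, 27 were tested. In MMTV-PyMT against Normal ECs, 1 was called higher and 8 lower (6.24% and 7.67% of all genes), and in Implanted against Normal ECs 3 were higher and 7 lower (5.74% and 5.71%). The falls included the fatty acid receptor Cd36 (-2.09 and -2.14), the lipid-binding Fabp4 (-2.15 and -1.61), the glycerol channel Aqp7 (-2.70 and -2.81) and the efflux pump Abcg2 (-1.13 and -1.74). Plin4 was called lower in both comparisons as well. The study describes ECs that express Aqp7 and Fabp5 as a differentiated subpopulation of the breast. The part of adipocytes or of such ECs in these falls was not tested. Under cGAMP the calls were 3 higher and 2 lower in Implanted ECs, 1 higher in MMTV-PyMT and 2 higher in Normal ECs. Of 14 regulators, 2, 2 and 4 were called higher and 0 lower under cGAMP in Normal, MMTV-PyMT and Implanted ECs. Over all genes, 3.02%, 2.49% and 6.13% were called higher in these tissues, and 1.09% lower in Implanted ECs. Irf1, a factor of the interferon response, was called in all 3, by 1.99, 2.53 and 1.53. Nfkb1 (1.14) and Rela (1.03), which encode NF-kB subunits, were called in Implanted ECs.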

How the data were processed

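Bulk RNA-seq of sorted ECs was analysed in 18 libraries (6 groups of 3). Per the methods of the study, 75-base paired reads from a directional kit were checked with FastQC, aligned to mm10 with STAR 2.7 and counted with HTSeq-count; use of strand in counting was not given in the sources used here. The authors deposited 1 table of FPKM values for 16248 genes, without counts, and how FPKM was derived was not stated. For 15772 genes the values were whole multiples of 1 read at the annotated gene length. For the other 476, the smallest length that made every library whole was taken, so those reads had no separate check. Reads were thus assigned to all genes (100%, tolerance 0.05 reads), from 9184658 to 12200551 per library, a 1.33-fold range in depth. The 6 columns of Normal ECs name the treatment and number only.

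Values were tested as log2(FPKM + 1) in limma 3.58.1 (R 4.3.3) with 6 group means, a trend in the moderated variance, and Benjamini-Hochberg adjustment over 13983 genes at 1 FPKM or more in at least 3 libraries. Fold changes on this scale understate changes of low genes. The script was tested on simulated data. All 18 pairs of libraries within groups differed beyond sampling noise (chi-square per degree of freedom of 4.1 to 31.6). Named were, in each comparison of treatments or tissues, the 10 called members with the largest rise and the 10 with the largest fall, the 5 largest differences between effects, the 3 highest members of each class, and members of fixed lists. Members, lists and classes were chosen with earlier results of these data known. Alternatives were a pseudocount of 0.1, no filter, a mean of at least 5 FPKM, quantile normalization, scaling by total reads, voom with TMM on recovered reads, each comparison's own groups, no fold limit, a replicate block and each library left out. Overlapping and antisense genes may share reads. Values of some single genes are not reported here.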

Additional observations from a re-analysis of the deposited data

Results flagged for a closer look

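The results below drew attention because the effect of cGAMP differed between tissues by a test of the difference itself (limma, Benjamini-Hochberg adjusted p under 0.05 and an absolute log2 difference of at least 1). Groups of 3 libraries were too small to be searched for single outlying samples.

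Slc15a3 and Slc25a22 responded more in Implanted ECs than in both other tissues. Slc15a3 differed by 1.90 from MMTV-PyMT (adjusted p = 0.000289) and by 1.91 from Normal ECs (adjusted p = 0.000124), and Slc25a22 by 1.08 (adjusted p = 0.00222) and 1.90 (adjusted p = 1.38e-05). Slc28a3 had the more negative effect in Implanted ECs, by -1.30 against MMTV-PyMT (adjusted p = 0.00872).

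Between Implanted and Normal ECs, Slc2a6 (1.61), Slc12a7 (1.41), Slc7a2 (1.34), Slc12a9 (1.11) and Slc28a2 (1.05) had the more positive effect in Implanted ECs, with adjusted p of 0.00144, 0.00041, 0.0151, 8.39e-05 and 0.00593. Slc12a9 is an orphan of the cation-chloride cotransporter family. Slc7a2 was 0.92 without Implanted cGAMP replicate 2, the library with high leukocyte markers, and the part of leukocytes or other cells was not tested. Slc28a2 lost its call without that library, Implanted PBS replicate 1, Normal PBS replicate 3 or Normal cGAMP replicate 1, with 0.86 as the lowest value.

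Slc7a5 (-1.78), Slc5a8 (-1.38), Slc5a5 (-1.35), Slc25a29 (-1.08), Slc16a12 (-1.07) and Slc41a2 (-1.06) had the more negative effect in Implanted than in Normal ECs, with adjusted p of 0.000116, 0.012, 0.0242, 0.000391, 0.000372 and 0.0189. Slc25a29 was -0.97 without Implanted cGAMP replicate 2. Slc16a12 was -0.99 at the smallest and lost its call without Normal PBS replicate 3 or Normal cGAMP replicate 2. Slc41a2 was -0.83 at the smallest and lost its call without Normal cGAMP replicate 2 or Implanted cGAMP replicate 3. Slc5a5 lost its call without Normal PBS replicate 2, Normal cGAMP replicate 1 or 3, Implanted PBS replicate 1 or Implanted cGAMP replicate 1, where its adjusted p rose above 0.05, with -1.10 as the smallest value, and also with a pseudocount of 0.1, under voom and in a fit of its own groups alone. Slc12a9 was 0.85 under total-read scaling, below the fold limit.

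Between MMTV-PyMT and Normal ECs the effect was more negative in MMTV-PyMT for Slc12a2 (-1.11), Slc7a5 (-1.06), Slc25a29 (-1.03) and Slc25a34 (-1.02), with adjusted p of 0.000657, 0.0133, 0.00262 and 0.0334. Slc7a5 was -0.84 without Normal cGAMP replicate 2. Slc25a29 lost its call without Normal PBS replicate 3, Normal cGAMP replicate 2, MMTV-PyMT PBS replicate 3 or MMTV-PyMT cGAMP replicate 3, with -0.96 as the smallest value.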

How the results depend on the processing

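Counts of called members moved with the pseudocount, the voom fit, the level filter and the fold limit. With a pseudocount of 0.1, cGAMP against PBS gave 19 calls in Normal ECs, 6 for MMTV-PyMT and 19 for Implanted ECs. They were 10, 20 and 9 for the differences of effects between Implanted and MMTV-PyMT, Implanted and Normal, and MMTV-PyMT and Normal ECs, and 43 between the tumours under PBS. In the voom fit the same counts were 24, 6, 21, 9, 21, 13 and 46, and MMTV-PyMT and Implanted against Normal under PBS had 70 and 59. Over all genes the voom fit called 1122, 601, 1825, 522, 928, 436 and 2075, and 3356 and 2579. With genes of at least 5 FPKM on average, 3 members were called in Normal ECs under cGAMP, 6 for Implanted against Normal effects, 2 for MMTV-PyMT against Normal effects, and 22 and 9 under PBS for MMTV-PyMT against Normal and Implanted against MMTV-PyMT. That filter leaves fewer genes to test. Without the fold limit the counts were 79, 30 and 85 under cGAMP, 17, 47 and 24 for the differences of effects, and 140, 115 and 112 between tissues. For MMTV-PyMT against Normal effects, 7 were called under quantile normalization and 9 with total-read scaling, against 281 and 243 of all genes. Other shifts had causes that were not tested.

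Leaving out 1 library gave 8 to 10 calls for Normal ECs, 2 to 4 for MMTV-PyMT and 6 to 11 for Implanted ECs, where 11 came without cGAMP replicate 2 or 3. The differences of effects gave 2 to 4, 11 to 15 and 2 to 6 calls, the last moved by Normal PBS replicate 3 and MMTV-PyMT cGAMP replicate 3. The PBS comparisons gave 50 to 55, 37 to 42 and 18 to 28.

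Deviations of same-numbered libraries from their group means correlated between -0.345 and 0.294, and those of differently numbered libraries between -0.333 and 0.369. Centring on a mean of 3 libraries itself forces offsetting values. The correlations therefore cannot decide whether the numbers pair the libraries. With the replicate number as a block the counts were 8, 3, 7, 3, 13, 4, 50, 40 and 23, equal to those without it.

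Values turned sign for 3 genes in Implanted ECs under cGAMP. Under quantile normalization Slc25a3 was -0.29, Slc39a1 -0.14 and Slc2a1 -0.0157, and with total-read scaling Slc25a3 was -0.26 and Slc39a1 -0.032. Total-read scaling moved the median of all genes in that comparison from -0.01 to -0.25. Over the alternatives other than the fold limit, which were run on the values of 92 named genes, 8879 values that had passed stayed past the threshold, 485 did not and 3 turned. Of those that did not pass, 11576 stayed, 268 came to pass and 2 turned.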
